A study of Mus musculus with 8 samples.

Results

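The genes described here encode the proteasome, the protease complex that degrades ubiquitin-tagged proteins. They were chosen by name, as every gene whose symbol begins with Psma, Psmb, Psmc or Psmd followed by a number, and 39 of the 13838 genes in the deposited tables met that rule. Of these, 38 were in the footprint table and 39 in the total RNA table, 18 with core particle symbols (Psma, Psmb) and 21 with regulatory particle symbols (Psmc, Psmd). The 39 genes held 31 standard subunits of the finished particle, which were 14 core subunits (7 alpha and 7 beta) and 17 regulatory subunits (6 ATPases and 11 others). The other genes were the tissue-restricted core subunits Psma8, Psmb8, Psmb10 and Psmb11, the assembly chaperones Psmd5, Psmd9 and Psmd10, and Psmc3ip. Psmc3ip encodes a meiotic recombination factor that matches the rule by name and is not a subunit of the particle. Psmb9 was not analysed here.

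The core particle is a barrel of stacked rings, with alpha rings that gate the entrance and beta rings that hold the peptide-cutting sites. The regulatory particle caps the barrel: its ATPase ring unfolds substrates and drives them inward, while its other subunits bind ubiquitin chains and remove them. Because the subunits assemble in fixed proportions, cells make them together, and the transcription factor encoded by Nfe2l1 raises their genes when proteasome activity falls. Human embryonic stem cells are known for high proteasome activity.

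The cells were mouse embryonic stem cells of the J1 line (strain 129S4/SvJae). Cultures kept without feeder cells on gelatin with serum and LIF, were infected with shRNAs against eIF4A2, an RNA helicase of translation initiation, or with the control shRNAs shNT and shGFP. The tested shRNAs were sheIF4A2-2 and sheIF4A2-3, and the sources used here do not say which of them a given library received. All cells, controls included, were selected with puromycin at 1 µg/mL for 3 days, taken on day 4.5 and treated for 1 min with cycloheximide (0.1 mg/mL) to hold ribosomes in place. Ribosome footprints, the mRNA pieces shielded by ribosomes, and total RNA were each sequenced from 2 knockdown and 2 control libraries, described as biological replicates. The comparisons ask whether proteasome mRNAs were occupied by ribosomes, or present as RNA, at other levels after the knockdown.

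Footprint libraries held 7947827 to 10682677 reads and total RNA libraries 8564582 to 12840349, and each standard subunit had 854 to 6234 footprint reads and 842 to 7604 total RNA reads per library. Eif4a2 had 311 and 154 CPM of footprints in the knockdown, against 395 and 409 in the control. Its total RNA was 583 and 617 CPM in the knockdown, against 739 and 969 in the control. The log2 changes were -0.88 ± 0.29 and -0.50 ± 0.18 (SE, limma adjusted p = 0.273 and 0.290). Eif4a2 itself thus did not reach an adjusted p below 0.05, and its fall was partial. Footprint knockdown 1 kept more Eif4a2 footprints than knockdown 2. All 5 stem cell markers (Pou5f1, Nanog, Sox2, Zfp42, Esrrb) were measured, at a summed 2985 and 2919 CPM of total RNA in the knockdown, against 4199 and 4882 in the control. Of 8 fibroblast markers, 3 were measured (Col1a1, Col1a2, Thy1), summing to 9.08 and 9.32 CPM in the knockdown, against 17.0 and 6.99 in the control, and the part of other cells in the results was not tested. The total RNA control libraries stood apart from each other: the SD of their log2 differences over genes was 0.45, against 0.135 between the knockdown libraries. Among footprints that SD was 0.423 between the knockdown and 0.372 between the control libraries. In RNA from whole cultures, fewer cells of a type and less RNA per cell cannot be told apart.

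No proteasome gene passed the test in footprints, in total RNA or in the ratio between them (limma on log2(CPM + 1), Benjamini-Hochberg adjusted p below 0.05 over all genes tested). The tests covered 37, 39 and 37 of the genes, and 0.0% of all genes passed in each comparison. Without adjustment, 1 proteasome gene had p below 0.05 in footprints (Psmd9, a chaperone) of 1636 genes in all, 1 in total RNA (Psmb8) of 2002, and 0 of 192 in the ratio. The edgeR quasi-likelihood test on reads called 0 proteasome genes in each comparison, and its calls over all genes were 3, 0 and 0, with footprint control 2 not used. With 2 libraries against 2, an exact permutation test of a single gene cannot go below a two-sided p of 0.333.

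The core subunits showed no common shift in footprints. Their median log2 change was -0.04 over 14 genes, with 6 positive and 8 negative values and a range of -0.35 to 0.23, beside a median of 0.005 over all genes. The alpha subunits had a median of -0.06 and the beta subunits 0.01. Psma4, an alpha subunit whose yeast counterpart helps close the gate, had 178 and 275 CPM in the knockdown, against 283 and 281 in the control. Both knockdown libraries were lower, by unequal amounts, and the log2 change was -0.35 ± 0.22 (SE; limma adjusted p = 0.535). Psmb3, a beta subunit with no cutting site, had 472 and 644 CPM in the knockdown, against 570 and 501 in the control. Its knockdown libraries lay on either side of both controls. Psma4 total RNA was 167 and 150 CPM in the knockdown, against 143 and 256 in the control, which overlapped.

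The 3 beta subunits with cutting sites are Psmb5 (chymotrypsin-like), Psmb6 (caspase-like) and Psmb7 (trypsin-like). Psmb5 footprints were 364 and 425 CPM in the knockdown, against 375 and 382 in the control. Psmb6 footprints were 309 and 398 CPM in the knockdown, against 332 and 268 in the control. Psmb7 footprints were 220 and 308 CPM in the knockdown, against 283 and 291 in the control. In all 3 genes the groups overlapped, and the log2 changes were 0.06 ± 0.17, 0.23 ± 0.19 and -0.14 ± 0.19 (SE). Knockdown 1 gave the lower knockdown value in each. Psmb7 total RNA was 215 and 212 CPM in the knockdown, against 175 and 248 in the control.

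Most regulatory subunits had negative values in footprints, without any gene passing the test. Their median log2 change was -0.17 over 17 genes, with 2 positive and 15 negative values, while 49.5% of all genes were negative. The ATPases had a median of -0.20 and the others -0.15. Psmd3, a scaffold subunit of the lid, had 269 and 297 CPM in the knockdown, against 352 and 327 in the control. Psmd7, the partner of the deubiquitinase Psmd14, had 301 and 363 CPM in the knockdown, against 396 and 383 in the control. Both genes were lower in each knockdown library than in each control library, with log2 changes of -0.26 ± 0.16 and -0.24 ± 0.17 (SE; limma adjusted p = 0.531 and 0.603). Psmc5, an ATPase, had 337 and 382 CPM in the knockdown, against 363 and 336 in the control, and so overlapped.

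Footprints of 8 of the 31 standard subunits were lower in both knockdown libraries than in both controls, and 0 were higher, while 22.5% of all genes were lower and 22.3% higher. The 8 were the core subunits Psma4 and Psmb1 and the regulatory subunits Psmc3, Psmd1, Psmd2, Psmd3, Psmd7 and Psmd8. The count of lower subunits, at 8 of 31, was near that background. In 1 subunit, the lid subunit Psmd11, both knockdown libraries lay between the controls, against 8.7% of all genes. The negative regulatory median rested on 1 library. Without footprint knockdown 1 their median was 0.01, with 10 of 17 positive, and without knockdown 2 it was -0.35, with 0 positive. The core median was 0.17 without knockdown 1 and -0.21 without knockdown 2.

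**Figure D1:**
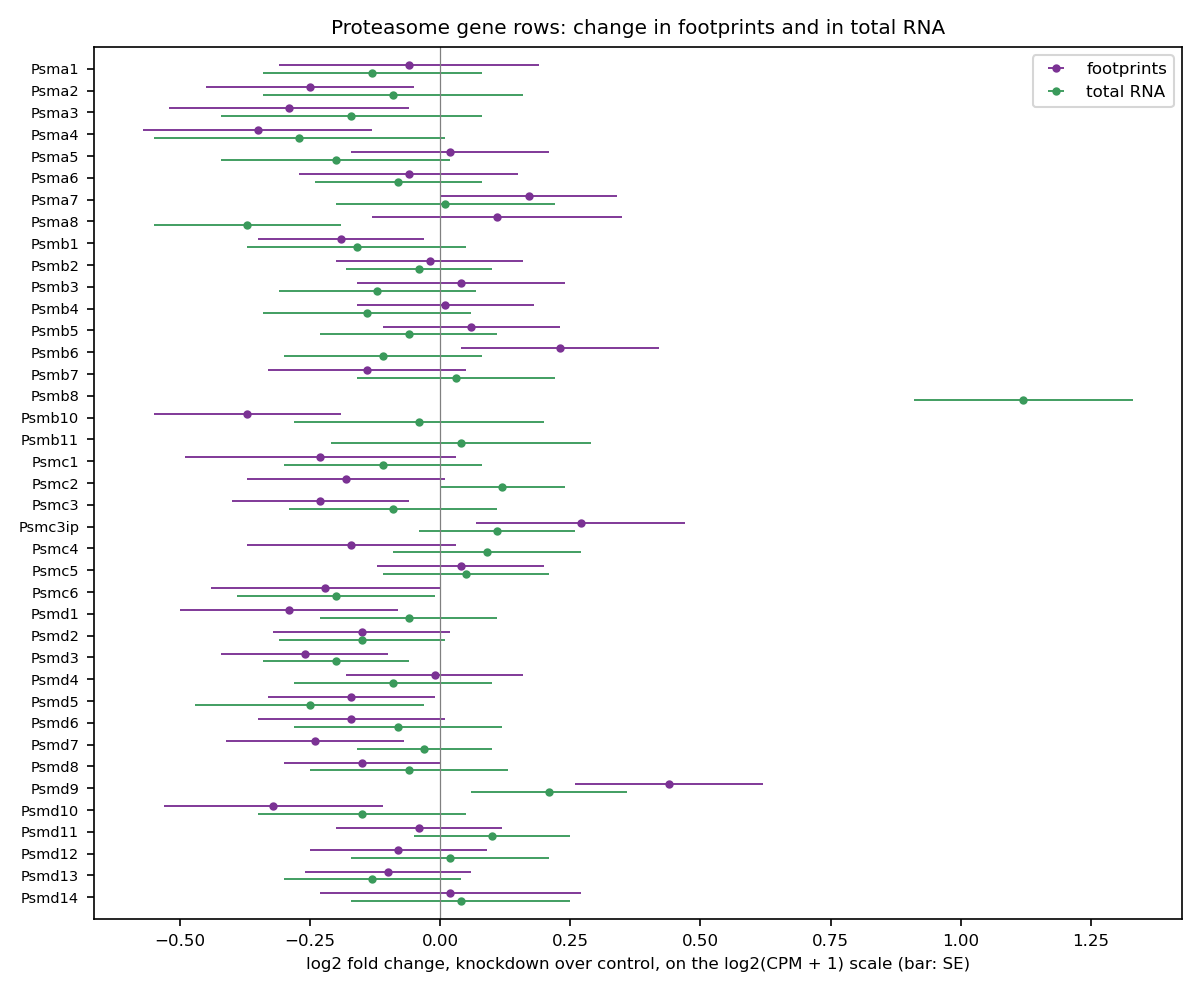
Log2 change, knockdown over control, of each proteasome gene in either assay where tested, with standard errors from limma and the genes in order of symbol. The tissue-restricted subunits, the assembly chaperones and Psmc3ip are shown among the standard subunits. The standard regulatory subunits have medians of -0.17 (footprints) and -0.06 (total RNA), and the standard core subunits of -0.04 and -0.12.

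In total RNA, the knockdown values of the subunits lay inside the gap between the control libraries. Both knockdown libraries fell between the controls in 28 of the 31 standard subunits (14 of 14 core, 14 of 17 regulatory), against 28.5% of all genes. The exceptions were Psmc2, an ATPase, which was higher in both knockdown libraries, Psmd3, which was lower in both, and Psmd11, a lid subunit whose groups overlapped. Over all genes, both knockdown libraries were above both controls in 23.3% and below them in 24.6%. Median log2 changes were -0.12 for the core (2 positive, 12 negative) and -0.06 for the regulatory subunits (6 positive, 11 negative), beside -0.002 over all genes. Without control 1 the core median was -0.38, with 0 of 14 positive, and without control 2 it was 0.13, with 14 of 14 positive. The regulatory median was -0.29 and 0.14 in the same order. Psmb6 had 232 and 222 CPM of total RNA in the knockdown, against 205 and 293 in the control. Psma7, an alpha subunit, had 217 and 206 CPM in the knockdown, against 173 and 257 in the control. These genes had knockdown values close to each other and controls far apart.

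Psmc2 total RNA was 168 and 168 CPM in the knockdown, against 155 and 153 in the control, a log2 change of 0.12 ± 0.12 (SE; limma adjusted p = 0.700). Psmd3 total RNA was 297 and 268 CPM in the knockdown, against 307 and 344 in the control, a log2 change of -0.20 ± 0.14 (SE; limma adjusted p = 0.551). Neither gene passed the test. Psmc2 footprints were 178 and 241 CPM in the knockdown, against 245 and 225 in the control, and Psmd7 total RNA was 269 and 275 CPM in the knockdown, against 265 and 290 in the control.

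The subunits lay high or low together in single libraries. In footprints, knockdown 1 was the lowest of the 4 libraries in 27 of 31 subunits, where it was lowest in 34.4% of all genes of at least 10 CPM. Knockdown 2 was the highest in 17 of 31, against 27.6% of all genes. In total RNA, control 2 was the highest in 29 of 31 subunits and control 1 the lowest in 28, against 40.8% and 31.4% of all genes. The median subunit lay -0.21 in footprint knockdown 1 and 0.13 in knockdown 2 from its mean log2 value over the 4 libraries. In total RNA it lay 0.28 in control 2 and -0.20 in control 1. At the median subunit the footprint knockdown libraries lay far apart, and so did the total RNA controls, while the footprint controls (0.05 and 0.06) and the total RNA knockdown libraries (-0.03 and -0.05) lay close together.

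**Figure D2:**
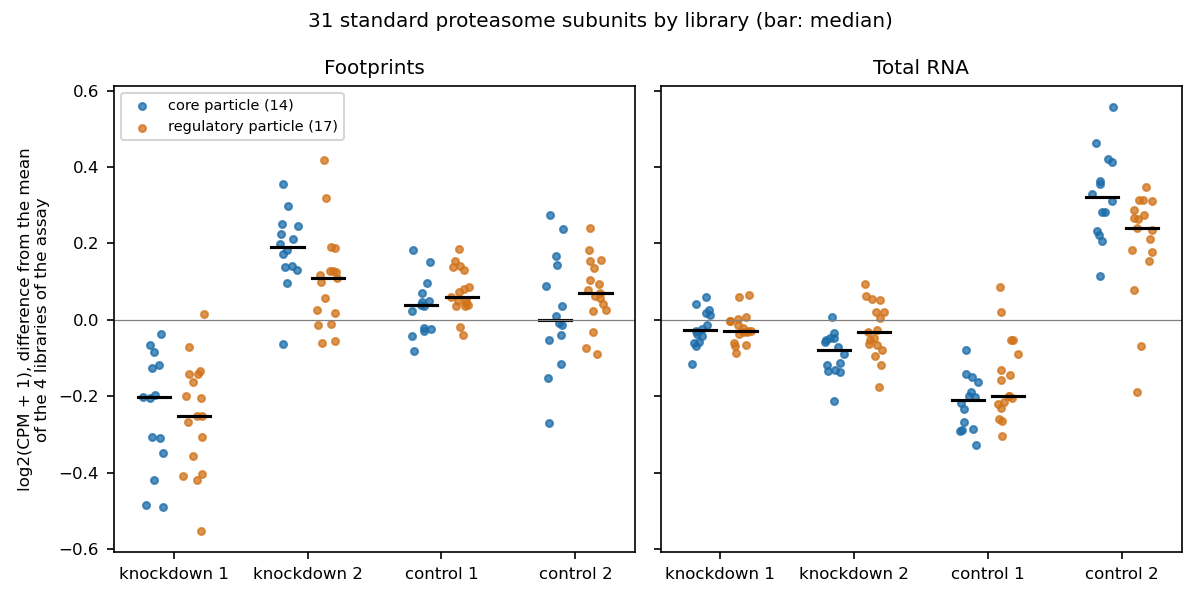
Log2 position of each standard subunit in each library relative to its mean over the 4 libraries of that assay, with 1 point per subunit. Footprint knockdown 1 sits low (median -0.21), and among total RNA libraries control 2 sits high (0.28) and control 1 low (-0.20), with the knockdown libraries between them.

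The total RNA controls also set the calls. With control 1 left out, limma called 31 proteasome genes, 29 lower and 2 higher (Psmb8 and Psmd11), while 23.0% of all genes were called lower and 23.1% higher. With control 2 left out it called 9 genes, all higher, while 12.0% of all genes were called higher and 13.3% lower. These fits assume that the lone control library varies like the others. Of 6 genes called both ways, 5 had opposite signs: the alpha subunits Psma2 and Psma7, the beta subunit Psmb7, and the lid subunits Psmd12 and Psmd14. The remaining gene was Psmb8, higher in both fits. It passed the filter on low values only through its knockdown libraries, so it had to differ. Which control library is nearer to the control state cannot be told from 2 libraries.

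Summed core CPM over summed regulatory CPM ran from 0.640 to 0.866 over the libraries of both assays. The sums held 14 core and 17 regulatory genes and were not set per transcript length. They therefore compare reads and do not give the proportion of the subunits. Core over regulatory CPM was 0.831 and 0.866 in knockdown footprints, against 0.795 and 0.777 in control footprints. In total RNA it was 0.680 and 0.649 in the knockdown, against 0.640 and 0.740 in the control. The footprint groups did not overlap and the total RNA groups did, and no test was made of this sum over the chosen genes. The 31 subunits together took 0.887% and 1.01% of the summed footprint values in the knockdown, against 0.966% and 0.906% in the control. Their share of total RNA was 0.738% and 0.722% in the knockdown, against 0.658% and 0.824% in the control.

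The change in footprints relative to total RNA was tested as the interaction of assay and knockdown over all 8 libraries. The median log2 change was 0.05 for the core (9 positive, 5 negative) and -0.09 for the regulatory subunits (2 positive, 15 negative), beside -0.005 over all genes. All 6 ATPases were negative, with a median of -0.13. The core gene with the smallest p among standard subunits was Psmb6, at 0.35 ± 0.29 (SE), and the regulatory ones were Psmc2, at -0.30 ± 0.24, and Psmd7, at -0.21 ± 0.22. Each had a limma adjusted p of 0.9999. Without total RNA control 1 the medians were 0.32 for the core and 0.15 for the regulatory subunits, and without control 2 they were -0.14 and -0.29. Without footprint knockdown 1 they were 0.26 and 0.06, and without knockdown 2 they were -0.12 and -0.27. The signs of these medians therefore depended on single libraries.

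The median proteasome subunit had a higher footprint-to-RNA ratio than the median gene, in knockdown and control libraries. This ratio is given as the log2 ratio of group means of CPM + 1. The tables were scaled separately, so only positions relative to other genes are meaningful. The median over the 31 standard subunits was 0.30 in the knockdown and 0.37 in the control. Over the 8019 genes of at least 10 CPM in both assays it was -0.25 in the knockdown and -0.23 in the control. Those genes were not matched to the subunits in level or transcript length. A ratio above 0, an arbitrary cut given the separate scaling, was found in 27 of 31 subunits in each group, against 2743 of those 8019 genes in the knockdown and 2918 in the control. The core median was 0.53 in the knockdown and 0.47 in the control, and the regulatory median was 0.28 and 0.32 in the same order. Over the 4 pairings of a footprint library with a total RNA library, the core median ran from 0.25 to 0.72 in the knockdown and from 0.16 to 0.74 in the control. The regulatory median ran from 0.03 to 0.46 in the knockdown and from 0.13 to 0.59 in the control, so the particles' ranges overlapped. Without total RNA control 1 the control medians were 0.17 for the core and 0.14 for the regulatory subunits, and without control 2 they were 0.72 and 0.58.

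Within the core, beta subunits had the higher medians, 0.64 in the knockdown and 0.57 in the control, against 0.45 and 0.27 for alpha subunits. Within the regulatory particle, ATPases had medians of 0.31 in the knockdown and 0.46 in the control, against 0.19 and 0.14 for the other subunits. Psmb3 had the highest ratio, at 1.30 in the knockdown (0.98 to 1.59 over pairings) and 1.11 in the control (0.80 to 1.44). Its total RNA was 238 and 214 CPM in the knockdown, against 210 and 286 in the control. In the control its ratio lay at percentile 98.0 of the genes of at least 10 CPM in both assays. Psmb5 came next, at 1.08 in the knockdown and 0.96 in the control, with total RNA of 197 and 174 CPM in the knockdown, against 170 and 218 in the control. For Psmb3 and Psmb5 the control pairings, 0.80 to 1.44 and 0.78 to 1.16, overlapped, so their order was not separated.

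Among regulatory subunits the highest control ratios belonged to the ATPases Psmc5 and Psmc4. Psmc5 had a ratio of 0.64 in the knockdown and 0.64 in the control, with total RNA of 226 and 235 CPM in the knockdown, against 196 and 252 in the control. Psmc4 had a ratio of 0.41 in the knockdown and 0.62 in the control, with footprints of 240 and 351 CPM in the knockdown, against 321 and 331 in the control. Its total RNA was 226 and 219 CPM in the knockdown, against 179 and 244 in the control. In the control the lowest core and regulatory ratios among standard subunits were those of Psma7, at 0.01 in the knockdown and -0.19 in the control, and Psmd8, a lid subunit, at -0.20 and -0.14 in the same order. In the knockdown, Psma3, an alpha subunit, was the lowest of the core at -0.15, against -0.12 in the control. Psma7 footprints were 195 and 232 CPM in the knockdown, against 197 and 180 in the control. Psmd8 footprints were 148 and 160 CPM in the knockdown, against 172 and 169 in the control, and its total RNA was 181 and 173 CPM in the knockdown, against 156 and 219 in the control. The mRNAs of 1 complex thus spanned more than a log2 unit in this ratio. Their SD over the standard subunits was 0.33 in the knockdown and 0.31 in the control. Over the genes of at least 10 CPM in both assays, which were not matched in level, it was larger, 0.64 and 0.72.

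The order of subunits held between groups. Across the 31 subunits the knockdown ratio followed the control ratio with r = 0.89 (Pearson) and rho = 0.82 (Spearman), and no library was shared. Between control replicate 1 and control replicate 2 libraries, r was 0.81 and rho 0.78. Footprint changes against total RNA changes, a different quantity, gave r of 0.27 and rho of 0.28. The SD of these changes over the subunits was 0.141 in footprints and 0.097 in total RNA. Each was below the SE of any single subunit in that assay, so this r cannot be set against those of the ratio. All these correlations describe genes, which are not independent replicates, and gene length and base composition are common to both sides.

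**Figure D3:**
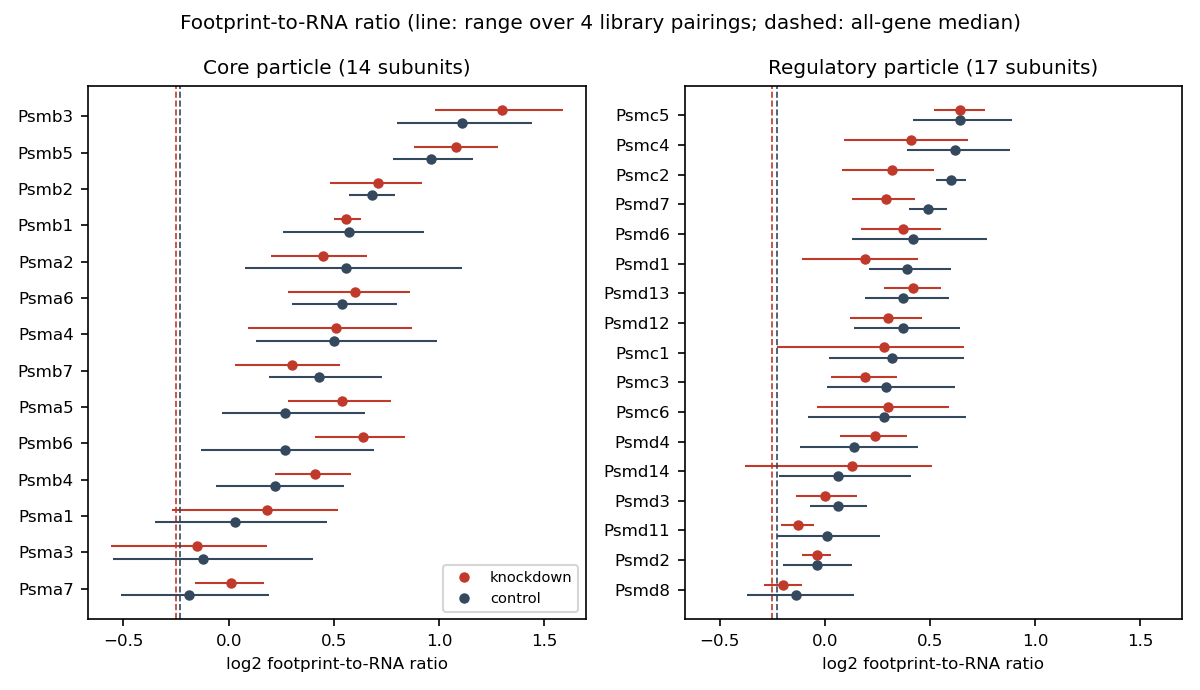
Footprint-to-RNA ratio (log2 ratio of group means of CPM + 1) of each standard subunit in the knockdown and in the control, with the range over the 4 library pairings. Psmb3 and Psmb5 lie highest (1.30 and 1.08 in the knockdown, 1.11 and 0.96 in the control), and Psma7 and Psmd8 lie low.

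Psmb8, the immunoproteasome form of the chymotrypsin-like subunit, was the proteasome gene with the largest difference, at very low levels. It had 1.42 and 1.43 CPM of total RNA in the knockdown, against 0.114 and 0.111 in the control, which is 18 and 19 reads against 1 and 1. Its footprints were 1.24 and 1.05 CPM in the knockdown, against 0.319 and 0.198 in the control, or 11 and 10 reads against 3 and 2. All 4 knockdown libraries were above all controls in both assays. From summed reads the ratio was 12.7 (95% exact interval 3.27 to 108) in total RNA and 4.44 (1.63 to 15.1) in footprints. These intervals cover counting error only. The footprint interval includes the reads of control 2, a library left out of the count tests. The log2 change in total RNA was 1.12 ± 0.21 (SE; limma adjusted p = 0.115), on a scale that understates changes at such low levels. The gene passed the filter on low values only through its knockdown libraries, so it had to differ, and in footprints it failed the filter. In the authors' deposited table its total RNA log2 fold change was 3.53 with an FDR of 0.000179, and its footprint log2 fold change was 2.095 with an FDR of 0.257. That total RNA call was the only one among the proteasome genes in the authors' deposited table, where 2.21% of all genes were called higher and 3.19% lower. In its footprint comparison 0 proteasome genes were called, against 0.788% of all genes higher and 0.889% lower.

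The other tissue-restricted subunits did not follow Psmb8. Psmb10, the immunoproteasome form of the trypsin-like subunit, had 37.8 and 36.6 CPM of footprints in the knockdown, against 45.4 and 51.8 in the control, a log2 change of -0.37 ± 0.18 (SE; limma adjusted p = 0.425). Its total RNA overlapped, at 46.7 and 41.6 CPM in the knockdown, against 36.0 and 57.4 in the control. Psma8, the testis form of Psma7, had 17.5 and 17.6 CPM of total RNA in the knockdown, against 20.2 and 26.3 in the control, a log2 change of -0.37 ± 0.18 (SE; limma adjusted p = 0.406). Psma8 footprints overlapped, at 14.9 and 20.1 CPM in the knockdown, against 14.4 and 17.5 in the control, and its ratio was -0.01 in the knockdown and -0.51 in the control. The difference between those changes was 0.49 ± 0.31 (SE; limma adjusted p = 0.9999). Psmb11, the thymus form, had 2.60 and 2.63 CPM of total RNA in the knockdown, against 3.31 and 1.89 in the control, with no footprint row. None of these genes passed the test.

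**Figure D4:**
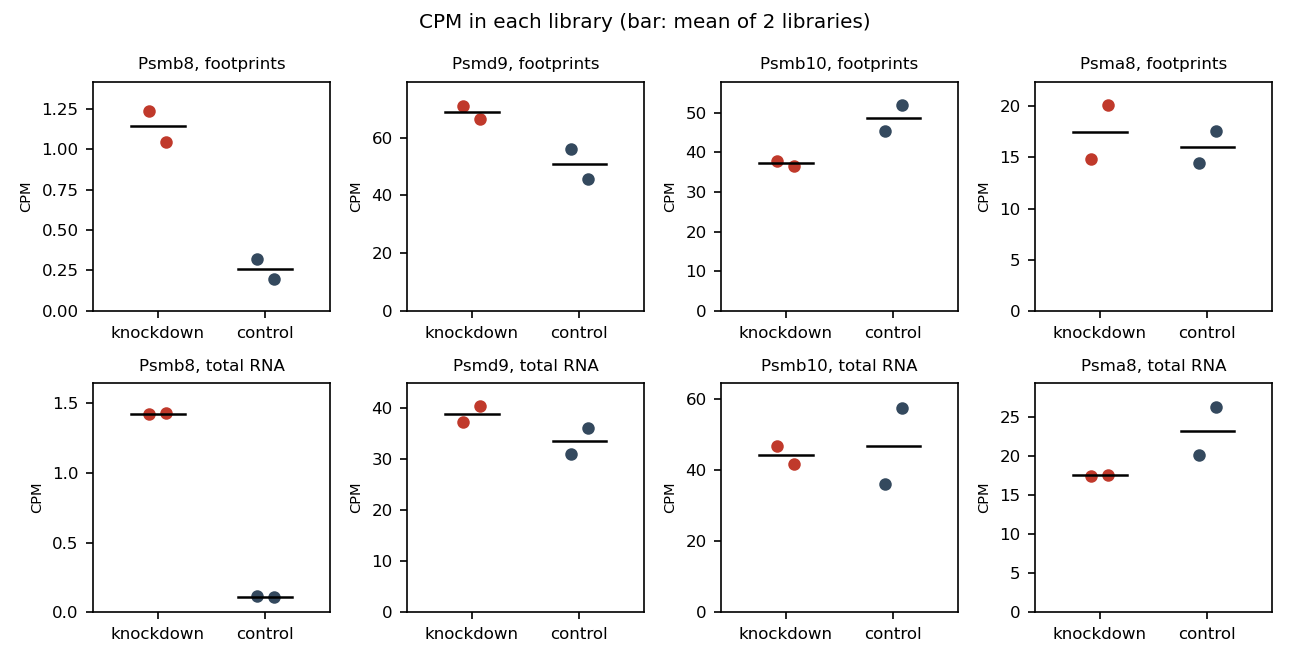
CPM of single proteasome genes in each knockdown and control library of both assays, with 1 point per library. Psmb8 (1.42 and 1.43 against 0.114 and 0.111 CPM of total RNA) and Psmd9 lie higher in every knockdown library, while Psmb10 lies lower in footprints only.

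The assembly chaperones of the regulatory base leave before the particle is finished. Psmd9 had 71.0 and 66.6 CPM of footprints in the knockdown, against 56.2 and 45.6 in the control. Psmd9 total RNA was 37.2 and 40.3 CPM in the knockdown, against 30.9 and 36.0 in the control. The gene was higher in every knockdown library in both assays, with a log2 change of 0.44 ± 0.18 for footprints and of 0.21 ± 0.15 for total RNA (SE; limma adjusted p = 0.354 and 0.579). Psmd10 (gankyrin) footprints were 16.6 and 18.3 CPM in the knockdown, against 20.9 and 23.3 in the control. These footprints did not overlap between the groups, while Psmd10 total RNA did, at 18.3 and 16.2 CPM in the knockdown, against 16.4 and 22.6 in the control. Psmd5 footprints were 90.6 and 97.6 CPM in the knockdown, against 99.8 and 113 in the control. Psmd5 total RNA was 113 and 108 CPM in the knockdown, against 106 and 162 in the control. Footprints of Psmd10 and Psmd5 were lower in both knockdown libraries and those of Psmd9 higher. In footprints 22.5% of all genes were lower in this way and 22.3% higher, and in total RNA 24.6% and 23.3%. Psmd5 had the lowest regulatory ratio, -0.23 in the knockdown and -0.33 in the control. Psmc3ip had 33.4 and 41.8 CPM of footprints in the knockdown, against 33.6 and 28.4 in the control, which overlapped. Its total RNA was 30.4 and 31.5 CPM in the knockdown, against 27.4 and 29.9 in the control, a log2 change of 0.11 ± 0.15 (SE).

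The upstream sequences of Psmb8 and Psmd9 are shown because these were the proteasome genes higher in every knockdown library of both assays. In footprints 2 of 38 proteasome genes were higher in both knockdown libraries, against 22.3% of all genes. In total RNA 4 of 39 were, against 23.3%. The share of all genes higher in both assays was not counted, so the choice is for display only. The printed sequences are the 250 bases before the gene start in RefSeq on GRCm38.p6, a build other than the mm9 named for the deposited files. Psmb8 lies at chr17:34197945-34198194 and Psmd9 at chr5:123227940-123228189, both on the + strand, and capitals mark a match to TGACNNNGC, the core of the antioxidant response element bound by the Nfe2l1 and Nfe2l2 proteins.
Psmb8: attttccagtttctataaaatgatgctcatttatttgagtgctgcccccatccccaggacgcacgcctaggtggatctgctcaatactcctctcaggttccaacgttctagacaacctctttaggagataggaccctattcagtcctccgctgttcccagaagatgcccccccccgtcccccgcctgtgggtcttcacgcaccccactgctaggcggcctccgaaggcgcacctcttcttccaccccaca
Psmd9: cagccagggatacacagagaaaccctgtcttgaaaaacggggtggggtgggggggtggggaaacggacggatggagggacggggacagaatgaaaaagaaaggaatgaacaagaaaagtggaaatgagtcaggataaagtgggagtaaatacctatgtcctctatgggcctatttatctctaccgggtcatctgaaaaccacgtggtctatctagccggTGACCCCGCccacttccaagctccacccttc
The Psmd9 match starts 31 bases before the gene start, and these letters are not in the Psmb8 window. RefSeq entries were found for 32 of the 39 genes and 25 of the 31 standard subunits, and both strands were searched. The element core occurred in 4 of the 25 subunits (16.0%), beside 11.5% of 27025 genes and 14.2% of the genes in the total RNA table.

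The ETS core CCGGAAG was found in more regulatory than core subunits. It occurred in 8 of 14 regulatory subunits (57.1%) and 1 of 11 core subunits (9.09%), beside 7.83% of all genes and 15.6% of the genes in the total RNA table. The CCAAT box ran the other way, in 4 of 14 regulatory (28.6%) and 6 of 11 core subunits (54.5%). It occurred in 37.5% of all genes and 40.8% of the genes in the total RNA table. So did TGCGCANGC, a motif of the nuclear respiratory factor, in 1 of 14 regulatory (7.14%) and 3 of 11 core subunits (27.3%), beside 3.95% and 8.21%. These contrasts rest on few genes and were not tested. The core match and examples of the regulatory matches are printed to show this, with the match in capitals and 10 bases on each side, on the strand that reads CCGGAAG.
Psma6, chr12:55398683-55398709, + strand: gagccaccacCCGGAAGcccgcggacc
Psmc1, chr12:100110164-100110190, - strand: atcgccaccgCCGGAAGtgcatccacc
Psmc2, chr5:21786713-21786739, - strand: ctcttccccaCCGGAAGtagctccgcg
Psmd2, chr16:20651616-20651642, - strand: gtcctccagaCCGGAAGcgccctgcgg
Psmd4, chr3:95042723-95042749, - strand: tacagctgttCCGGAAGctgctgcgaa
Psmd6, chr14:14120974-14121000, - strand: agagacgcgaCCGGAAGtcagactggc
None of these printed matches shares bases with a match to the other motifs searched. Psmc6, Psmd11 and Psmd12 were the other regulatory subunits with a match. A match describes letters, was not tested as a binding site and was not compared with the values.

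Other genes of the pathway did not pass the test either. Among 5 activators and inhibitors of the core, the median log2 change in footprints was 0.08, with 3 positive and 2 negative. Psme2, a subunit of the interferon-inducible cap, had 52.9 and 60.3 CPM of footprints in the knockdown, against 43.7 and 30.5 in the control, a log2 change of 0.61 ± 0.21 (SE; limma adjusted p = 0.287). Its partner Psme1 had 71.5 and 62.1 CPM in the knockdown, against 78.9 and 72.1 in the control, so the partners of 1 cap had opposite signs. The 5 core assembly chaperones had medians of -0.09 in footprints and -0.14 in total RNA. Psmg3 total RNA was 18.3 and 18.0 CPM in the knockdown, against 22.8 and 23.3 in the control, a log2 change of -0.33 ± 0.15 (SE; limma adjusted p = 0.375).

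Of 8 bound deubiquitinases and shuttle factors, 6 were negative in footprints, with a median of -0.20. Rad23b, which carries ubiquitinated proteins to the proteasome, had 370 and 385 CPM of footprints in the knockdown, against 497 and 479 in the control, a log2 change of -0.37 ± 0.16 (SE; limma adjusted p = 0.379). Its total RNA log2 change was -0.33 ± 0.17. In the axis of Nfe2l1, 3 of 5 genes were positive in each assay. Nfe2l1 footprints were 104 and 97.8 CPM in the knockdown, against 92.0 and 107 in the control, which overlapped. Its total RNA was 145.6 and 159.5 CPM in the knockdown, against 145.3 and 126.6 in the control. That was a log2 change of 0.17 ± 0.14 (SE, limma adjusted p = 0.630). The total RNA of Nfe2l2 had the other sign, at -0.31 ± 0.14 (SE, limma adjusted p = 0.382). Ngly1, the glycanase that activates the Nfe2l1 protein, had 8.55 and 10.9 CPM of footprints in the knockdown, against 5.10 and 6.15 in the control, a log2 change of 0.69 ± 0.27 (SE; limma adjusted p = 0.334). Ubiquitin and E1 enzyme genes had medians of -0.17 in footprints and -0.04 in total RNA over 6 genes, and the Vcp group had 0.05 and 0.09 over 4. Adrm1, a ubiquitin receptor of the regulatory particle, had 203 and 212 CPM of footprints in the knockdown, against 233 and 223 in the control, and Sem1, a small subunit of the lid, had 177 and 164 CPM in the knockdown, against 220 and 182 in the control. Both were lower in each knockdown library than in each control, as were 22.5% of all genes. Their log2 changes were -0.14 ± 0.15 and -0.23 ± 0.17 (SE).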

How the data were processed

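Knockdown and control libraries (2 each) were measured as footprints and as total RNA. The deposited library columns hold a signal on the CPM scale, made by the authors by dividing reads per gene by an effective library size. The deposited tables also hold log2 fold changes, a likelihood ratio score and p-values with FDR, per the file headers. Build mm9, edgeR 3.26.8, HTSeq 0.11.2, TopHat2 2.1.1 and Bowtie 1.2.3 appear in the submitters' processing notes without roles. Every value was a whole multiple of its column's lowest value (within 0.01 read), so reads were read back. Footprint control 2 did not pass a separate check of this and was left out of count tests. Its reads were kept in the read counts given and in the Psmb8 interval. Genes were kept with filterByExpr (minimum count 10, total 15; edgeR 4.0.16). limma 3.58.1 in R 4.3.3 tested log2(CPM + 1), which understates changes of low genes, with 2 residual degrees of freedom within an assay and 4 over all 8 libraries. Scripts were tested on simulated data. Levels were not set per transcript length. Alternatives were a pseudocount of 0.5, no filter, median scaling, edgeR's quasi-likelihood test, a replicate block, 1 fit over all libraries and leaving out each library. Genes given in every library were the tissue-restricted and catalytic subunits and chaperones, and the core and regulatory genes with the smallest p or the highest or lowest ratio. The members and lists were chosen with earlier results of these data known.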

Additional observations from a re-analysis of the deposited data

How the results depend on the processing

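With 2 libraries per group, calls in total RNA depended on the controls. Leaving out 1 library at a time, the number of proteasome genes called in total RNA ran from 0 to 31 (9 without control 2), and the regulatory median from -0.29 to 0.14. In footprints 0 were called (20, 36, 4 and 1 of 12723 genes in all, without knockdown 1, knockdown 2, control 1 and control 2) and the regulatory median ran from -0.35 to 0.01. The total RNA log2 change of Psma7 ran from -0.28 (without control 1) to 0.29 (without control 2) and that of Psmb7 from -0.22 to 0.28, each called at both ends, and the cause was not tested. With the replicate number as a block, 1 proteasome gene was called in total RNA (Psmb8, limma adjusted p = 0.00511) and 0 in footprints or the ratio. In total RNA this fit called 636 of 13436 genes in all. Psmb8 passed the filter on low values only through its knockdown libraries, so it had to differ. Deviations of same-numbered libraries correlated at 0.231 in footprints and -0.275 in total RNA, and between the assays at 0.114 in the knockdown and 0.213 in the control. Not every pair was above 0.1, so the numbers were not taken as pairs. The crossed pairing, chosen after seeing the data, also gave 1 call (924 in all). Another pseudocount, no filter, median scaling and the quasi-likelihood test called 0 proteasome genes (at most 3 in all), as did 1 fit over all libraries, which called 89 genes in footprints and 97 in total RNA of 12358 and did not include Psmb8. Over all alternatives, the sign differed in 36 of 370 footprint values, 38 of 427 total RNA values and 73 of 481 ratio values.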
